A study of Homo sapiens with 18 samples.

Results

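The genes described here encode the digestive enzymes, membrane proteins and proton pump of the lysosome, together with TFEB and TFE3, transcription factors that control many of them. The 34 genes were taken by symbol from a list, and all 34 had 1 entry each among the 60504 identifiers of the expression table. They comprise 13 soluble hydrolases, 2 soluble non-enzymes, 6 membrane proteins, 11 subunits or accessory proteins of the vacuolar ATPase (V-ATPase), and the 2 factors. All 34 passed the filter on low values and were among the 14936 genes tested.

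The cells were A375, a long-established human melanoma line known for its BRAF mutation, and the agent was IMD-0354, a small molecule described as blocking the NF-κB kinase IKKβ. RNA 3' ends were sequenced in 18 libraries, 3 per group. The treated groups received 0.32, 0.63 or 1.25 µM for 24 h, or 0.63 µM for 48 h, and untreated cells were collected at 24 h and at 48 h. All groups are 1 cell line with no other genetic change given, no vehicle is named for the untreated cells, and the labels do not state whether the libraries of a group are separate cultures, so that p-values may measure technical spread only. Levels are TPM, a gene's length-adjusted share of the transcripts of its library, which hold no record of read depth, so the depth behind each value is unknown.

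Lysosomes break down protein, lipid, sugar chains and nucleic acid with acid hydrolases that are delivered through the secretory pathway. The V-ATPase, made of a membrane-embedded V0 sector and a cytosolic V1 sector that splits ATP, pumps protons into the lumen and keeps it acid. TFEB, TFE3 and their relative MITF, a melanocyte lineage factor, bind palindromic E-box sequences known as CLEAR elements in the promoters of many lysosomal genes. In melanoma cells lysosomes also share origin and factors with pigment granules.

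The CLEAR core occurred in more of these promoters than in promoters at large, and the windows that hold it are printed as a sequence feature. How the list of genes was drawn up is not stated. Such elements may have played a part in it, so the shares below are a description only. RefSeq promoters (GRCh38.p14, 250 bases before to 50 after the start) were matched by symbol for 25 of the 34 genes; CTSB, HEXA, PSAP, LAMP2, ATP6V0E1, ATP6V1A, ATP6V1B2, ATP6V1C1 and ATP6V1H had no match. Searched on both strands, the hexamer CACGTG was found in 9 of the 25 (36%), against 7.43% of all 27305 promoters of that length. With 1 base more on either side, TCACGTG or its reverse complement CACGTGA was found in 8 (32%) against 3.82%. The longer TCACGTGA, which contains these, was found in 6 (24%) against 1.04%, and the full element GTCACGTGAC, which contains all of them, in 3 (12%) against 0.381%. Promoters of 20 lysosomal hydrolases outside the 34 were also above promoters at large. They held CACGTG in 20%, TCACGTG or its reverse complement in 20%, TCACGTGA in 10% and GTCACGTGAC in 5%. A match is a string of letters and does not show binding. The 9 windows, from RefSeq and written 5′ to 3′ on the strand of the gene, have the longest match in capitals with up to 20 bases on each side.
GAA, chr17:80101528-80101577, plus strand: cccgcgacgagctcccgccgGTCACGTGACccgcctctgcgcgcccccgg
MCOLN1, chr19:7522588-7522623, plus strand: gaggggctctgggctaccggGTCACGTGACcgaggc
ATP6V1G1, chr9:114587689-114587738, plus strand: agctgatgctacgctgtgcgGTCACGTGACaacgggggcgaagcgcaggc
CTSA, chr20:45891289-45891334, plus strand: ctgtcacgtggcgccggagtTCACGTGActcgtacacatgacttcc
LAMP1, chr13:113297190-113297237, plus strand: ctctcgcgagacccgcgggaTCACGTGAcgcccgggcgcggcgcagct
ATP6V0D1, chr16:67481190-67481237, minus strand: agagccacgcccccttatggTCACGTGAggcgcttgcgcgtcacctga
NEU1, chr6:31862922-31862968, minus strand: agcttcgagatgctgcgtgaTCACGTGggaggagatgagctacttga
CTSD, chr11:1763948-1763994, minus strand: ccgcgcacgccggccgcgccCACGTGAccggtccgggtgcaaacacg
CD63, chr12:55729164-55729209, minus strand: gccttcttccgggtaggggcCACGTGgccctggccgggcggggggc

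Changes below are differences of log2(TPM + 1) with the standard error (SE) of a limma fit over all 14936 genes, and a gene passed where its Benjamini-Hochberg adjusted p over those genes was under 0.05. That scale understates changes of low genes. In all, between 14647 and 17029 genes were above 0 in a library, and pairs of libraries correlated across genes with r of 0.866 to 0.956. The lineage factors SOX10 and MITF were expressed (8.29 to 34.7 and 2.87 to 16.8 TPM), while TYR, which encodes tyrosinase, was at 0 in every library and MLANA, PMEL, DCT and S100B reached at most 2.37 TPM. The summed level of these 7 lineage markers was 36.1 to 40.6 TPM at 1.25 µM against 21.8 to 54.8 TPM in untreated cells at 24 h, and 16.0 to 19.7 TPM at 0.63 µM for 48 h against 31.5 to 35.4 TPM in untreated cells; its part in the results was not tested. SOX10 and MITF made up most of the lineage sum and did not move alike. At 1.25 µM SOX10 was at 27.1, 31.5 and 25.2 TPM, against 17.1, 8.29 and 34.7 TPM in untreated libraries, while MITF, given below, was lower. At 48 h SOX10 was at 13.5, 11.9 and 12.6 TPM at 0.63 µM, against 13.6, 14.9 and 18.6 TPM in untreated libraries, and MITF fell more. The 12 markers of immune, endothelial, epithelial and fibroblast cells summed to at most 2.12 TPM, with 3 of the 12 at 0 throughout. Untreated 24 h replicate 2 stood apart: it was the lowest of the 18 libraries for 11 of the 34 lysosomal genes and had the lowest mean correlation with its own group (r = 0.907). The count of lowest values was not made over all genes, so whether it is particular to lysosomal genes is unknown. Several changes that this library moves strongly are given with and without it. Other changes against untreated cells at 24 h may also depend on it.

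The lysosomal genes spanned a wide range of levels. Because division by length distorts levels between genes in 3' libraries, the order of genes and the part of CD63 below are uncertain. CD63, a tetraspanin of late endosomes and lysosomes, was the most abundant at 526 to 1926 TPM, followed by the V0 subunit gene ATP6V0C at 101 to 312 TPM and by NPC2, a cholesterol carrier of the lumen, at 56.6 to 176 TPM. TFEB was the least abundant, at 0 in 6 libraries and at most 2.26 TPM, and the calcium channel gene MCOLN1 was at 0 in 2. Together the 34 genes made up 0.207% ± 0.063 of all TPM in untreated cells at 24 h, 0.224% ± 0.0178 at 0.32 µM, 0.241% ± 0.0222 at 0.63 µM and 0.325% ± 0.0059 at 1.25 µM (mean ± SD, n = 3), with CD63 the largest part. The untreated libraries were at 0.227%, 0.137% and 0.258%, and without the low value, that of replicate 2, the remaining pair lay within or above the range of the lower doses (0.211% to 0.255%) and below all libraries at 1.25 µM. At 48 h they made up 0.191% ± 0.0245 at 0.63 µM and 0.222% ± 0.0157 in untreated cells. The group mean was highest at 1.25 µM for 16 of the 34 genes (47.1%, against 22.7% of all genes tested) and lowest at 0.63 µM for 48 h for 18 (52.9%, against 30.7%).

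At 1.25 µM for 24 h 6 of the 34 genes rose and none fell. They were the proteases CTSB and CTSL, the sphingolipid activator precursor PSAP, the membrane proteins CD63 and NPC1, and ATP6AP1, an accessory protein of the proton pump. The 6 make up 17.6% of the genes, while 4.94% of all genes tested passed upward and 6.36% downward at this dose, and 6.82% upward of the 7964 genes with a mean of at least 5 TPM, a level that 26 of the 34 reached. The count was 3 without replicate 3 of the 1.25 µM group, namely CTSB, NPC1 and PSAP, and 4 without replicate 1 or replicate 2 of it. Leaving out untreated replicate 1, 2 or 3 gave 6, 5 and 8. It was 2, CTSB and PSAP, without untreated replicates 2 and 3 together, and 1, CTSB, when libraries of other groups were kept out of the fit. The values of all libraries at 1.25 µM lay above all untreated values for 14 genes (41.2%, against 12.4% of all genes) and below them for none (against 13.7%). For 11 of the 34 untreated replicate 2 held the lowest value of all libraries, so those genes could not lie below all untreated values. That part of the count was fixed by 1 library. The median change of the 34 was 0.29, against -0.01 over all genes tested.

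**Figure D1:**
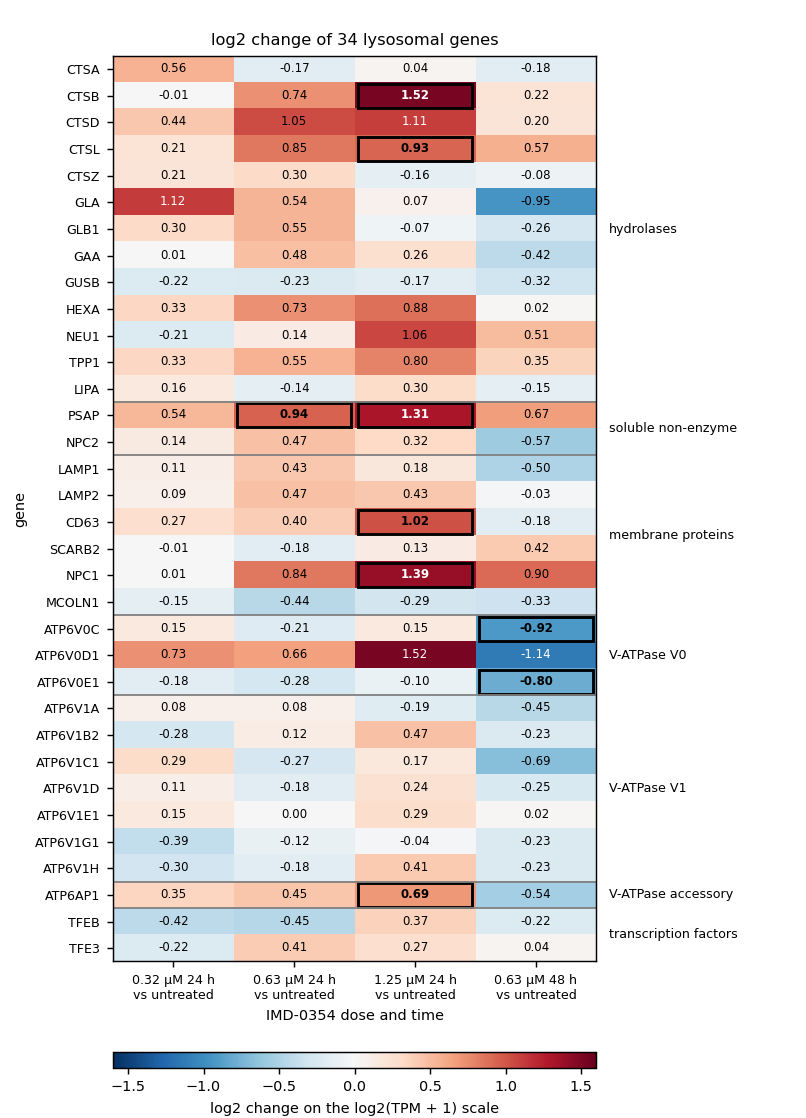
Log2 change of each of the 34 genes (rows, grouped by role) in the 4 comparisons with untreated cells of the same time (columns), with the value in each cell and an outline where limma called the gene. Outlined cells are 1 at 0.63 µM for 24 h, 6 at 1.25 µM and 2 at 0.63 µM for 48 h.

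Among the hydrolases, CTSB, which encodes the cysteine protease cathepsin B (ENSG00000164733), had the largest rise. At 24 h it stood at 25.8, 22.3 and 30.5 TPM in untreated libraries, 29.8, 25.0 and 23.2 TPM at 0.32 µM, 52.3, 45.5 and 35.7 TPM at 0.63 µM, and 68.8, 89.6 and 71.9 TPM at 1.25 µM. All libraries at 0.63 and 1.25 µM were above all untreated ones, those at 0.32 µM overlapped them, and those at 1.25 µM were also above all at 0.63 µM. The change at 1.25 µM was 1.52 (SE 0.20, limma adjusted p = 0.000166), and CTSB passed in each of the 16 alternative analyses of that comparison. At 0.63 µM the change was 0.74 and did not pass (limma adjusted p = 0.0655). At 48 h CTSB was at 48.1, 40.6 and 40.6 TPM at 0.63 µM, against 38.2, 29.3 and 44.6 TPM in untreated libraries, and the groups overlapped.

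CTSL, the gene of the related protease cathepsin L (ENSG00000135047, chr9:87725519-87731393 in GRCh38), was already high at 0.63 µM. Its 24 h values were 28.8, 22.6 and 37.3 TPM in untreated libraries, 22.2, 41.7 and 41.5 TPM at 0.32 µM, 54.5, 43.9 and 62.3 TPM at 0.63 µM, and 57.7, 62.7 and 48.7 TPM at 1.25 µM. The upper doses lay above all untreated libraries and overlapped each other. The change was 0.93 at 1.25 µM (SE 0.27, limma adjusted p = 0.037) and 0.85 at 0.63 µM (adjusted p = 0.113). The call at 1.25 µM was lost without untreated replicate 1 or 2 or without any 1 of the 3 libraries at 1.25 µM (adjusted p up to 0.125). At 48 h CTSL was at 32.5, 26.6 and 41.6 TPM at 0.63 µM, against 23.3, 16.2 and 28.0 TPM in untreated libraries, with overlap.

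CTSD, the gene of the aspartic protease cathepsin D, did not pass at any dose. It stood at 21.3, 5.22 and 24.0 TPM in untreated libraries at 24 h, 18.6, 22.5 and 17.7 TPM at 0.32 µM, 24.6, 25.8 and 43.3 TPM at 0.63 µM, and 39.0, 30.6 and 26.5 TPM at 1.25 µM. Every library at 0.63 and 1.25 µM was above every untreated one, but the low untreated value was that of the library that stood apart. The change at 1.25 µM was 1.11 (SE 0.38, limma adjusted p = 0.0746), and 0.47 without that library (adjusted p = 0.256). With that library kept, CTSD passed at 1.25 µM when untreated replicate 1 or untreated replicate 3 was left out. At 48 h it was at 26.5, 21.6 and 20.6 TPM at 0.63 µM, against 19.7, 18.6 and 20.6 TPM in untreated libraries.

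The other 10 hydrolases had changes of -0.17 to 1.06 at 1.25 µM and none passed. NEU1, a sialidase, was nearest to the threshold (1.06, limma adjusted p = 0.0531), with 7.54, 7.45 and 8.36 TPM at 1.25 µM against 2.03, 6.21 and 2.38 TPM in untreated libraries. Without untreated replicate 2, which held the value of 6.21 TPM, NEU1 passed (1.46, limma adjusted p = 0.0104). GUSB, which encodes β-glucuronidase, had the lowest change (-0.17, limma adjusted p = 0.758), at 11.97 ± 1.32 TPM against 13.6 ± 0.676 TPM in untreated cells (SD, n = 3). GUSB is uncertain because its pseudogene GUSBP1 averaged 7.07 TPM and reads may have been split between them. HEXA, TPP1 and NEU1 were above all untreated libraries at this dose without passing. HEXA passed when untreated replicate 1 was left out.

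PSAP, whose product prosaposin is cleaved into the saposins that present sphingolipids to hydrolases (ENSG00000197746, chr10:71816298-71851375), was the gene of the 34 that passed at a second dose. It stood at 80.1, 35.7 and 70.9 TPM in untreated libraries at 24 h, 80.8, 91.1 and 85.7 TPM at 0.32 µM, 98.3, 117 and 129 TPM at 0.63 µM, and 155, 145 and 141 TPM at 1.25 µM. Every treated library was above every untreated one, and the libraries at 1.25 µM were above those at 0.63 µM. The change was 1.31 at 1.25 µM (SE 0.22, limma adjusted p = 0.00141) and 0.94 at 0.63 µM (adjusted p = 0.0389). Without untreated replicate 2 these were 0.95 (adjusted p = 0.000745) and 0.59 (adjusted p = 0.0592). The call at 0.63 µM was also lost without any 1 of the libraries at that dose (adjusted p up to 0.159). NPC2 had a change of 0.32 at 1.25 µM and did not pass (adjusted p = 0.56). Without untreated replicate 2 the change of NPC2 was -0.097 (limma adjusted p = 0.863).

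Of the membrane proteins, CD63 (ENSG00000135404, chr12:55725323-55729707) stood at 1118, 526 and 1361 TPM in untreated libraries at 24 h. It was at 1036, 1296 and 1053 TPM at 0.32 µM, 1342, 1366 and 998 TPM at 0.63 µM, and 1802, 1926 and 1920.4 TPM at 1.25 µM. The libraries at 1.25 µM were above all others at 24 h, and the lower doses overlapped the untreated libraries. The change at 1.25 µM was 1.02 (SE 0.25, limma adjusted p = 0.0164). Without untreated replicate 2, which held the value of 526 TPM, it was 0.61 (adjusted p = 0.0296), and without 1.25 µM replicate 3 the call was lost (adjusted p = 0.0541).

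NPC1, which exports cholesterol from the lysosome (ENSG00000141458, chr18:23506184-23586898), stood at 6.54, 3.88 and 9.46 TPM in untreated libraries at 24 h and 8.99, 6.72 and 4.06 TPM at 0.32 µM. It was at 10.9, 12.7 and 12.5 TPM at 0.63 µM and at 17.3, 20.2 and 16.9 TPM at 1.25 µM. Each of these doses was above all untreated libraries, and 1.25 µM was above 0.63 µM. The change was 1.39 at 1.25 µM (SE 0.31, limma adjusted p = 0.0094) and 0.84 at 0.63 µM (adjusted p = 0.171). RMC1 overlaps NPC1 on the opposite strand, and use of the strand in counting is not stated; RMC1 was at 36.3 TPM at 1.25 µM against 24.7 TPM in untreated cells and did not pass (0.54, limma adjusted p = 0.226). For the same reason CTSA, NPC2, CD63 and ATP6V1D are uncertain, each being overlapped by a gene on the opposite strand; that of CD63 was at 3.10 TPM at 1.25 µM against 1.42 TPM in untreated cells.

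LAMP1, the abundant glycoprotein of the lysosomal membrane used as its marker, did not pass at any dose. It stood at 42.9, 32.3 and 39.7 TPM in untreated libraries at 24 h, 38.7, 43.0 and 41.8 TPM at 0.32 µM, 46.6, 62.0 and 47.02 TPM at 0.63 µM, and 46.9, 45.7 and 37.7 TPM at 1.25 µM. It was above all untreated libraries at 0.63 µM (0.43, limma adjusted p = 0.316) and overlapped them at 1.25 µM (0.18, adjusted p = 0.653). The other 3 membrane proteins, LAMP2, SCARB2 and MCOLN1, had changes of 0.43, 0.13 and -0.29 at 1.25 µM and did not pass. Without untreated 24 h replicate 2 these changes were 0.50, -0.16 and -0.88, and none passed. MCOLN1 overlaps PNPLA6 on the same strand, so its low values are uncertain.

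**Figure D2:**
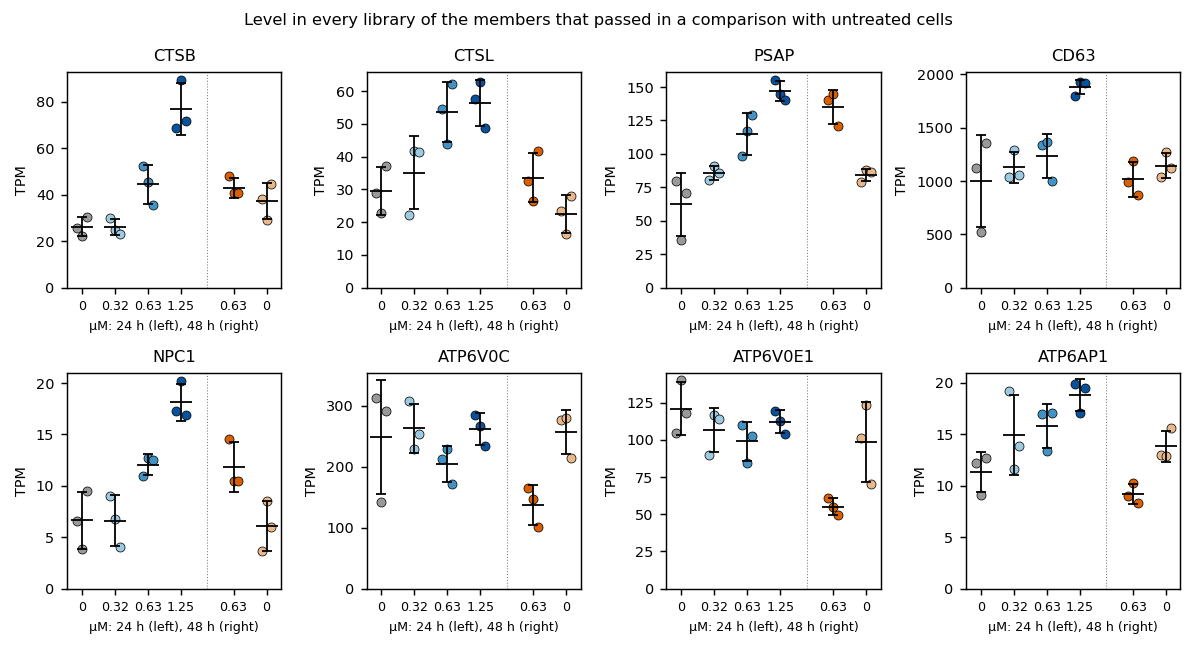
TPM in every library of the 8 genes that passed in at least 1 comparison with untreated cells, by IMD-0354 dose in µM at 24 h (left of the dotted line) and 48 h (right). Points are libraries, horizontal bars are means and whiskers are SD (n = 3). CTSB, PSAP, CD63 and NPC1 have their highest 24 h values at 1.25 µM, and ATP6V0C and ATP6V0E1 are lower at 0.63 µM for 48 h than in untreated cells of that time.

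Among the proton pump genes 1 of 11 rose at 1.25 µM, where 4.94% of all genes did. ATP6AP1, which encodes the accessory protein Ac45 (ENSG00000071553, chrX:154428632-154436516), stood at 12.2, 9.14 and 12.7 TPM in untreated libraries at 24 h, 19.2, 11.6 and 13.9 TPM at 0.32 µM, 17.01, 13.3 and 17.1 TPM at 0.63 µM, and 19.9, 17.1 and 19.5 TPM at 1.25 µM. The upper doses lay above all untreated libraries. The change at 1.25 µM was 0.69 (SE 0.21, limma adjusted p = 0.0406). The call was lost without untreated replicate 1 or 2 or without any 1 of the libraries at 1.25 µM (adjusted p up to 0.13).

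ATP6V0C, the gene of the proton-carrying ring subunit, did not pass at 24 h. It stood at 312, 142 and 292 TPM in untreated libraries, 307, 228 and 254 TPM at 0.32 µM, 213, 229 and 172 TPM at 0.63 µM, and 285, 266 and 234 TPM at 1.25 µM, with overlap at each dose. Its changes were 0.15 at 0.32 µM, -0.21 at 0.63 µM and 0.15 at 1.25 µM. Without untreated replicate 2, which held the value of 142 TPM, they were -0.21, -0.57 (limma adjusted p = 0.205) and -0.21, and none passed. ATP6V1H, a regulatory V1 subunit, stood at 41.2, 32.1 and 58.9 TPM in untreated libraries, 21.6, 45.7 and 41.1 TPM at 0.32 µM, 29.6, 34.5 and 52.4 TPM at 0.63 µM, and 57.0, 64.5 and 51.0 TPM at 1.25 µM. Its change at 1.25 µM was 0.41 with overlap (limma adjusted p = 0.499). Within V0, ATP6V0D1 had the largest change at 1.25 µM without passing (1.52, SE 0.59, limma adjusted p = 0.115). It stood at 19.3, 16.4 and 17.3 TPM there, against 11.95, 0.64 and 11.97 TPM in untreated libraries, the low value being again untreated replicate 2, without which the change was 0.52 (limma adjusted p = 0.446). With the low value kept, ATP6V0D1 passed when untreated replicate 3 was left out. ATP6V0E1, a small V0 subunit, had the smallest (-0.10, limma adjusted p = 0.805). It stood at 105, 141 and 118 TPM in untreated libraries at 24 h, 89.7, 117 and 114 TPM at 0.32 µM, 110.4, 84.7 and 102 TPM at 0.63 µM, and 119.8, 113 and 104 TPM at 1.25 µM, with overlap at each dose. The 7 V1 subunits ran from -0.19 for ATP6V1A, a part of the catalytic head, to 0.47 for ATP6V1B2, its partner in that head, and none passed.

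The transcription factor genes did not pass in any comparison. TFEB stood at 0.73, 0 and 0.86 TPM in untreated libraries at 24 h, at 0, 0 and 0.35 TPM at 0.32 µM, at 0.26, 0 and 0 TPM at 0.63 µM, and at 1.13, 0 and 2.26 TPM at 1.25 µM, so that these groups overlapped near 0. At 48 h it was at 2.10, 0.40 and 0.20 TPM at 0.63 µM, against 0.53, 1.55 and 1.13 TPM in untreated libraries. TFE3 stood at 7.46, 6.90 and 7.53 TPM in untreated libraries at 24 h, 7.37, 4.51 and 6.88 TPM at 0.32 µM, 11.7, 7.82 and 11.0 TPM at 0.63 µM, and 10.1, 9.72 and 7.36 TPM at 1.25 µM. It was above all untreated libraries at 0.63 µM (0.41, limma adjusted p = 0.367) and not at 1.25 µM (0.27, adjusted p = 0.503). At 48 h TFE3 was at 6.40, 5.37 and 6.68 TPM at 0.63 µM, against 7.17, 5.35 and 5.38 TPM in untreated libraries.

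At the lower doses few of the genes passed. At 0.63 µM for 24 h PSAP was the 1 gene called (2.94% of the 34, against 1.36% of all genes passing upward and 0.824% downward), a share close to the background. Values lay above all untreated ones for 11 genes (32.4%, against 10.0% of all genes) and below for none (against 9.26%). Those 11 were CTSB, CTSD, CTSL, GLB1, GAA, TPP1, PSAP, LAMP1, NPC1, ATP6AP1 and TFE3. At 0.32 µM limma called 0 of the 34 and 4 genes in all (0.0268%); 2 of the 34, PSAP and ATP6V1G1, had an unadjusted p under 0.05, as did 912 of all genes. Values there lay above all untreated ones for 2 of the 34, GLA and PSAP (against 4.08% of all genes), and below for 2, ATP6V1B2 and ATP6V1G1 (against 4.59%). The 3 doses share the untreated libraries, so values above those libraries at more than 1 dose are not separate observations. Genes for which untreated replicate 2 held the lowest value of all libraries could not lie below all untreated values at any dose.

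At 0.63 µM for 48 h 2 of the 34 genes fell and none rose. Both encode V0 subunits of the proton pump, ATP6V0C (ENSG00000185883, chr16:2513870-2520218) and ATP6V0E1 (ENSG00000113732, chr5:172983757-173035445). The 2 make up 5.88% of the genes, close to the 5.68% of all genes that passed downward, while 1.95% passed upward. Over all genes 291 passed upward and 849 downward, while median-of-ratios scaling gave 492 and 507 and quantile normalization 497 and 550. The median of all genes was itself shifted by -0.15 at this time and that of the 34 by -0.23. Values lay below all untreated ones for 7 genes (20.6%, against 21.3% of all genes) and above for 5 (14.7%, against 9.23%). The 7 were GLA, GAA, NPC2, ATP6AP1 and the V0 genes ATP6V0C, ATP6V0D1 and ATP6V0E1, and the 5 were NEU1, TPP1, PSAP, SCARB2 and NPC1. ATP6V0D1 had the lowest change of the 34 without passing (-1.14, limma adjusted p = 0.292). It stood at 8.35, 4.99 and 1.92 TPM, against 13.8, 11.2 and 8.61 TPM in untreated libraries.

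ATP6V0C stood at 164, 147 and 101 TPM at 0.63 µM for 48 h, against 277, 280 and 215 TPM in untreated libraries. ATP6V0E1 stood at 61.1, 55.0 and 49.4 TPM at 0.63 µM, against 102, 124 and 70.5 TPM in untreated libraries. The groups did not overlap for either gene. The changes were -0.92 for ATP6V0C (SE 0.26, limma adjusted p = 0.0391) and -0.80 for ATP6V0E1 (SE 0.19, limma adjusted p = 0.0187). Both calls were lost without untreated 48 h replicate 1 or 2 or without 0.63 µM 48 h replicate 2 or 3, when the adjusted p reached 0.19 for ATP6V0C and 0.112 for ATP6V0E1. They were also lost under median-of-ratios scaling, which brought the median of all genes to 0, with changes of -0.71 (adjusted p = 0.0988) and -0.59 (adjusted p = 0.0639), and under quantile normalization (adjusted p = 0.14 and 0.0567). Under both of these scalings 2 others of the 34 were called, and these rose: PSAP and NPC1.

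PSAP stood at 140.3, 145 and 121 TPM at 0.63 µM for 48 h, against 78.8, 87.6 and 86.1 TPM in untreated libraries. Its change was 0.67 in TPM as deposited (limma adjusted p = 0.0767), 0.88 after median-of-ratios scaling (adjusted p = 0.0228) and 0.92 after quantile normalization (adjusted p = 0.0167). NPC1 stood at 14.6, 10.5 and 10.4 TPM at 0.63 µM, against 3.69, 8.53 and 5.96 TPM in untreated libraries. Its change was 0.90 as deposited (limma adjusted p = 0.0966), 1.096 after median-of-ratios scaling (adjusted p = 0.0437) and 1.08 after quantile normalization (adjusted p = 0.042). Neither gene's groups overlapped.

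The remaining genes described by library did not pass at 48 h. ATP6AP1 stood at 8.96, 10.3 and 8.32 TPM at 0.63 µM, below all of the 12.98, 12.9 and 15.6 TPM of untreated libraries (-0.54, limma adjusted p = 0.133). CD63 stood at 991, 1192 and 866 TPM at 0.63 µM, against 1039, 1271 and 1126 TPM in untreated libraries, with overlap. LAMP1 stood at 34.1, 30.4 and 17.99 TPM at 0.63 µM, against 40.9, 40.1 and 33.2 TPM in untreated libraries, with overlap (-0.50, limma adjusted p = 0.186). For ATP6V1H 41.9, 34.7 and 20.2 TPM at 0.63 µM stood against 34.8, 25.6 and 54.2 TPM in untreated libraries, again with overlap. Replicate 3 of the 0.63 µM group was the lowest of all 18 libraries for 8 of the 34 genes, a count that was not made over all genes.

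None of the 34 passed when effects were compared directly. Between the effect of 0.63 µM at 48 h and at 24 h limma called 0 of the 34, with 0.0335% of all genes passing. The largest of these differences with an unadjusted p under 0.05 was that of ATP6V0D1 (-1.79, limma adjusted p = 0.412), which was -0.80 without untreated 24 h replicate 2 (adjusted p = 0.609); ATP6AP1, with -0.99, had the lowest adjusted p of them at 0.182. Between 1.25 and 0.63 µM at 24 h limma called 0 of the 34, with 1.51% of all genes passing, and CTSB had the lowest adjusted p (0.78, limma adjusted p = 0.061). CTSB passed there with a pseudocount of 5 TPM, with a filter of 5 TPM and under quantile normalization. Between untreated cells at 48 h and 24 h limma called 0 of the 34, with 0.0134% of all genes passing. Values lay above all those at 0.63 µM for 9 of the 34 at 1.25 µM (8.94% of all genes) and below for 2 (11.1% of all genes). In untreated cells 4 of the 34 lay higher at 48 h than at 24 h without overlap (4.87% of all genes) and 3 lower (7.65%). At an unadjusted p under 0.05 the 3 tests held 5, 5 and 4 of the 34, and 1784, 2299 and 1181 of all genes.

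Hydrolase genes had higher median changes than proton pump genes at 0.63 µM, at both times. The median change of the 13 hydrolases was 0.54 at 0.63 µM for 24 h, against -0.12 for the 11 V-ATPase genes, a difference of 0.66. At 0.63 µM for 48 h the medians were -0.08 and -0.45, a difference of 0.37, with 10 of the 11 pump genes but 7 of the 13 hydrolases below 0. The median of all genes tested was -0.15 at 48 h, so most genes tested were also below 0. The hydrolase median there turned to 0.06 under median-of-ratios scaling and 0.003 under quantile normalization, and the pump median was -0.26 and -0.27, so the differences were 0.32 and 0.27. At 0.32 µM the medians were 0.21 and 0.11 (difference 0.10), and at 1.25 µM 0.30 and 0.24 (difference 0.06). With a filter of 5 TPM, which keeps 11 of the 13 hydrolases, the difference at 1.25 µM was 0.56, above the 0.47 at 48 h. These differences have no test, since the members were chosen with results known. The difference at 1.25 µM changed sign with single libraries, from -0.12 without replicate 1 of that dose to 0.29 without untreated replicate 1. Over the same omissions it ran from 0.42 to 0.66 at 0.63 µM for 24 h, from 0.26 to 0.53 at 48 h and from 0.02 to 0.37 at 0.32 µM. Lysosomal genes outside the 34, listed by function, did not repeat the contrast at 24 h. At 0.63 µM for 24 h the median was 0.16 for 32 further hydrolases and 0.32 for 9 further V-ATPase subunits. At 0.63 µM for 48 h these medians were -0.04 and -0.34.

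**Figure D3:**
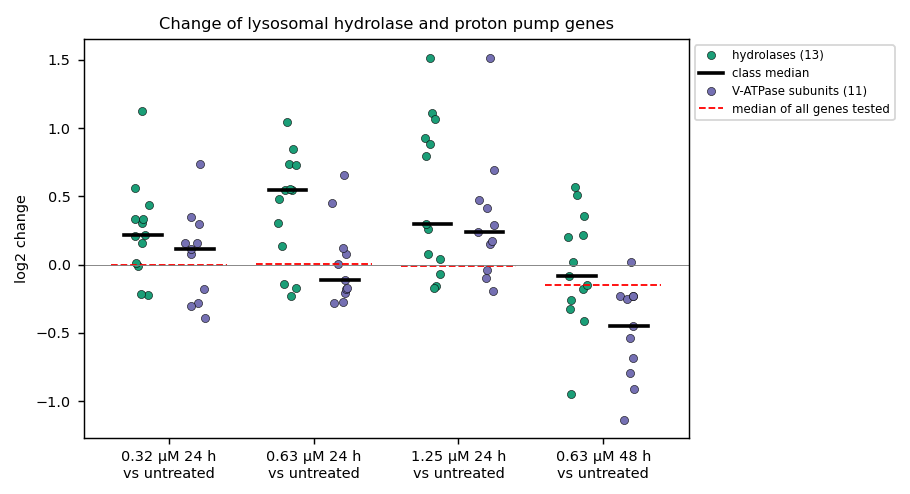
Log2 change of the 13 hydrolase genes (green, left of each pair) and the 11 V-ATPase genes (purple, right) in the 4 comparisons with untreated cells, with class medians as black bars and the median of all genes tested as a dashed line. The medians at 0.63 µM for 24 h are 0.54 for hydrolases and -0.12 for V-ATPase genes, and those at 48 h are -0.08 and -0.45.

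The same member values can be read library by library, which is another view of the contrast and not a separate observation. With each gene centred on its mean over the 18 libraries, the hydrolase median minus the pump median was 0.21, 0.53 and 0.38 in the libraries at 0.63 µM for 48 h, against 0.01, 0.07 and -0.07 in untreated libraries of that time, without overlap. At 24 h the difference was -0.16, -0.40 and -0.37 in untreated libraries, -0.35, 0.05 and 0.08 at 0.32 µM, 0.08, 0.15 and 0.31 at 0.63 µM, and -0.05, -0.18 and 0.03 at 1.25 µM. The libraries at 0.63 µM were all above the untreated ones, while those at 0.32 and 1.25 µM overlapped them. Untreated libraries also differed by time without overlap, those at 24 h all lying below those at 48 h. The mean difference was -0.31 in untreated cells at 24 h, 0.0016 in untreated cells at 48 h and 0.37 at 0.63 µM for 48 h. The hydrolase median itself was 0.15, 0.21 and 0.41 at 0.63 µM for 24 h, above the -0.06, -0.53 and -0.08 of untreated libraries. The pump median was -0.11, -0.56 and -0.64 at 0.63 µM for 48 h, below the -0.06, -0.07 and -0.03 of untreated libraries.

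**Figure D4:**
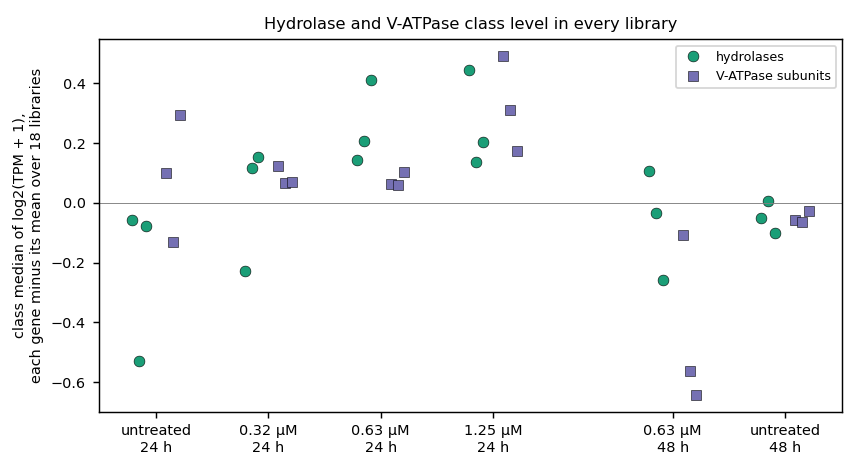
Median over hydrolase genes (circles) and over V-ATPase genes (squares) of log2(TPM + 1), each gene minus its mean over the 18 libraries, for every library of the 6 groups. At 0.63 µM for 48 h the V-ATPase medians lie between -0.64 and -0.11, below those of untreated libraries at that time.

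Other lysosomal genes, listed by function, gave few calls. Among the further hydrolases, CTSC, the gene of the exopeptidase cathepsin C, fell at 1.25 µM (-0.63, limma adjusted p = 0.0425), and PPT1, a thioesterase gene, was the 1 that fell at 48 h (-0.69, limma adjusted p = 0.038). Of 16 further membrane proteins 1 rose at 1.25 µM, the sialic acid exporter gene SLC17A5 (1.26, limma adjusted p = 0.0174). Of 9 further V-ATPase subunits measured 1 rose at 1.25 µM, the V1 subunit gene ATP6V1F (0.81, limma adjusted p = 0.0095). These are single genes in short lists, beside 4.94% of all genes that rose at 1.25 µM. Of 10 genes of mannose 6-phosphate sorting, which delivers hydrolases, none passed in any comparison.

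Rag, Ragulator and folliculin proteins link lysosomes to mTORC1 and so to the lysosomal transcription factors. Of 15 genes of these proteins and of mTORC1 itself (MTOR, RPTOR and MLST8), 2 rose at 1.25 µM, where 4.94% of all genes did. In the same list 1 fell at 48 h, where 5.68% of all genes did. RRAGD stood at 6.07, 5.13 and 6.45 TPM at 1.25 µM, against 0.71, 1.02 and 2.37 TPM in untreated libraries (1.598, limma adjusted p = 0.00155), and it also passed against 0.63 µM (1.14, limma adjusted p = 0.0488). RRAGC stood at 28.8, 27.4 and 42.7 TPM at 1.25 µM, against 14.6, 17.04 and 13.8 TPM in untreated libraries (1.05, limma adjusted p = 0.023). LAMTOR5, a Ragulator subunit gene, fell at 48 h (-0.60, limma adjusted p = 0.011). MITF stood at 4.93, 4.41 and 2.87 TPM at 0.63 µM for 48 h, against 16.5, 16.1 and 15 TPM in untreated libraries (-1.76, limma adjusted p = 0.00171). At 1.25 µM for 24 h MITF stood at 6.99, 4.14 and 14.2 TPM, against 16.6, 13.5 and 16.8 TPM in untreated libraries, with overlap and at the edge of the threshold (-0.96, limma adjusted p = 0.0498).

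The genes whose promoters hold the E-box core printed above had median changes near those of the rest. At 1.25 µM the median change was 0.26 for the 9 with CACGTG, of which CD63 passed, and 0.28 for the 16 without it, of which 3 passed. At 0.63 µM for 24 h the medians were 0.40 and 0.36, and at 48 h they were -0.23 and -0.19. The 3 genes with the full element, GAA, MCOLN1 and ATP6V1G1, had changes of 0.26, -0.29 and -0.04 at 1.25 µM and none passed. CTSB and PSAP are in neither class, since their promoters were not matched.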

How the data were processed

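The authors deposited 1 table of TPM per Ensembl gene with a column for each of the 18 libraries; each column sums to between 999999.1 and 1000000.5. Per the labels' protocols, the libraries were QuantSeq 3' mRNA-Seq (FWD) from total RNA. Per the submitters' processing notes, cutadapt 1.18, STAR 2.7 and RSEM 1.3.1 were used, with no role given; build, annotation and use of strand: not given in the sources used here. Because 3' libraries give about 1 tag per transcript, dividing by length distorts levels between genes more than changes of a single gene. Depth is unknown, so no interval or detection limit can be given.

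Gene symbols were looked up by Ensembl identifier (41209 had one) and coordinates from GENCODE release 29 (GRCh38). From the deposited TPM, log2(TPM + 1) was computed, keeping genes that reached 1 TPM in 3 or more libraries. In R 4.3.3, limma 3.58.1 fitted 1 mean per group to all 18 libraries, with moderated variances and a mean-variance trend (12 residual and 4.16 prior degrees of freedom), for 7 comparisons, each adjusted over all 14936 genes at a two-sided threshold of 0.05. The procedure was also tested on simulated data. Alternatives were other pseudocounts, filters and scalings, fits of the compared groups only or with the replicate number as a block, libraries left out, and, chosen after seeing the data, TPM rescaled without 4 very abundant chromosome 21 transcripts.

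The members, the lists and the tests were chosen with earlier results of these data known. Values in every library are given for genes that passed in at least 1 comparison with untreated cells and for LAMP1, CTSD, ATP6V0C, ATP6V1H, TFEB and TFE3. Of the others, those with the largest and smallest change at 1.25 µM in a class are named, and genes named beyond that, such as NEU1, HEXA and TPP1, were chosen after their values were seen. A result among the further hydrolases is not reported here.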

Additional observations from a re-analysis of the deposited data

How the results depend on the processing

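Across the alternatives no called gene changed direction; CTSB passed at 1.25 µM in 16 of 16, PSAP in 15, NPC1 in 14, CD63 in 13, ATP6AP1 in 8 and CTSL in 7. PSAP at 0.63 µM for 24 h passed in 8 of 16, and at 48 h ATP6V0E1 passed in 8 and ATP6V0C in 7 of 15. The number called at 0.63 µM for 24 h was 1 and became 2 with a filter of 5 TPM, and 0 with no filter, when the fit held only the compared groups, without untreated 24 h replicates 2 and 3, or after rescaling without the 4 abundant transcripts, whose share of TPM was 14.3% at 0.63 µM and 18.1% in untreated cells. At 1.25 µM it was 6 and became 1 with only the compared groups (limma then called 171 genes in place of 1688) and 2 without untreated replicates 2 and 3. At 48 h it was 2 and became 1 with no filter or with only the compared groups, the last being PSAP, which rose. Between 1.25 and 0.63 µM it was 0 and became 1 with a pseudocount of 5 TPM, with a filter of 5 TPM and with quantile normalization. With 1 library left out the number called ran from 0 to 2 at 0.63 µM for 24 h, from 3 to 8 at 1.25 µM and from 0 to 2 at 48 h, and was 0 throughout for the other comparisons.

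The hydrolase minus V-ATPase difference at 0.63 µM for 24 h was 0.661 and became 0.388 with a pseudocount of 5 TPM and 0.482 without untreated replicates 2 and 3. At 1.25 µM it was 0.055 and became 0.556 with a filter of 5 TPM, which leaves 11 of the 13 hydrolases. With 1 library left out it ran from 0.019 to 0.372 at 0.32 µM, from 0.419 to 0.661 at 0.63 µM for 24 h, from -0.12 to 0.286 at 1.25 µM and from 0.263 to 0.53 at 48 h. Over all genes, 25.5% of the calls at 48 h were higher, against 49.2% with median-of-ratios scaling and 47.5% with quantile normalization; at 0.63 µM for 24 h the share was 62.3%, against 44.5% after rescaling without the 4 transcripts. The cause of these shifts was not tested.

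The replicate number as a block left 0, 1, 7 and 2 of the 34 called at 0.32, 0.63 and 1.25 µM for 24 h and at 48 h, and 0 in the other comparisons. Same-numbered libraries did not deviate together (r of -0.0927 to 0.115 over 45 pairs, 1 over 0.1), so the numbers were not taken to pair the samples.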
